A study of Mus musculus with 12 samples.

Results

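The mitochondrial genome of the mouse carries 37 genes, and all 37 were found among the 47729 genes of each library as those whose symbol begins with mt-. They are 13 protein genes, 2 ribosomal RNA (rRNA) genes and 22 transfer RNA (tRNA) genes. Their abundance was followed as a share of all counted reads in 12 bulk RNA-seq libraries of fat from male, wild type C57BL/6J mice aged 6 to 10 weeks. There were 3 libraries from each of 4 depots: interscapular brown fat (BAT), epididymal white fat (EWAT), inguinal white fat (IWAT) and retroperitoneal white fat (RWAT). Every group had been surgically denervated and fed a high-fat diet, and no innervated fat was analysed here, so each comparison is between depots of denervated, diet-fed animals. The labels do not say that replicates came from separate mice, so every p-value measures only the spread between these libraries, which may be technical. In bulk tissue, fewer cells of a type and less RNA per cell cannot be told apart.

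The mitochondrial genome is a circle that is transcribed from both strands as long precursors, by a polymerase and factors that are encoded in the nucleus. The precursors are cut mainly at the tRNAs that lie between the larger genes, which releases the messenger RNAs and rRNAs. All the proteins it encodes are subunits of the respiratory chain or of ATP synthase, and they are assembled with many subunits made from nuclear genes. Brown adipocytes are rich in mitochondria and burn fuel for heat through the uncoupling protein Ucp1, while white adipocytes hold fewer mitochondria.

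The depots were checked against their marker genes before the shares were read. Levels are given as CPM, the count scaled to a library total of 1000000. Ucp1 stood at 1404 CPM in BAT 1, but at 0.273 CPM in BAT 2 and 1.58 CPM in BAT 3, below the 9.48 CPM of IWAT 2. The summed level of 10 brown adipocyte markers was 2142 CPM in BAT 1, 42.6 CPM in BAT 2 and 49.8 CPM in BAT 3, and it reached 85.1 CPM in a white library. So 2 of the 3 libraries labelled as brown fat were nearly without the defining marker Ucp1, and many BAT values below are given by library. Yet Zic1 and Lhx8, from the same list, were higher in each BAT library than in any white library. For Zic1, BAT replicates 1, 2 and 3 read 6.91, 17.3 and 13.3 CPM, with a white maximum of 0.96 CPM. For Lhx8 they read 8.54, 8.59 and 9.85 CPM, with a white maximum of 3.31 CPM. For the remaining markers of the list, BAT 2 and BAT 3 lay within the white range or below it. Skeletal muscle markers summed to 3257 CPM in RWAT 3, 586 CPM in RWAT 1 and 170 CPM in BAT 1, against 5.38 to 28.2 CPM in the other libraries. Total counts ran from 12933516 in RWAT 3 to 21106554 in EWAT 3.

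Nearly all counts of the sequence that mt-Co2 shares with a nuclear gene were listed under the nuclear gene, and whether those reads came from the mitochondrion or the nucleus cannot be told apart. Subunit 2 of cytochrome c oxidase is encoded by mt-Co2 at chrM:7013-7696 (GRCm38, plus strand). Gm28661, annotated as an unprocessed pseudogene on the minus strand at chr1:24614885-24615565, matched it at 681 of 681 compared bases. The nuclear copy ends 3 bases before mt-Co2 does. The ends of both are shown because they hold the only difference between them, and the capitals mark the bases of mt-Co2 that lie past the end of the copy, at chrM:7634-7696 (plus strand) and chr1:24614885-24614944 (minus strand):
mt-Co2: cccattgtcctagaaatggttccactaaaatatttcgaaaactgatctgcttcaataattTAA
Gm28661: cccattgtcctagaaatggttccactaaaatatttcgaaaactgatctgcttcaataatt

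Gm28661 was 1 of 7 nuclear copies that lie side by side within 4663 bases of chromosome 1, at chr1:24611535-24616197. Copies of mt-Atp6 (Gm10925), mt-Nd4 (Gm28439), mt-Nd4l (Gm10222) and mt-Co3 (Gm28437) in this block had no mismatch over their aligned bases. Those of mt-Co1 (Gm29216) and mt-Nd3 (Gm28438) each had 1. The substitution was A1066T between mt-Co1 and Gm29216 and T3C between mt-Nd3 and Gm28438, with positions counted from the first base of the mitochondrial gene and its base given first. These windows, cropped to the aligned bases, are shown because the capital is the only base that differs within the alignment. The first 9 bases of Gm29216 lie before the alignment and are not shown. The windows lie at chrM:6390-6423, chr1:24616155-24616188, chrM:9459-9491 and chr1:24613087-24613119, the mitochondrial ones on the plus and the nuclear ones on the minus strand:
mt-Co1: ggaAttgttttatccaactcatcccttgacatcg
Gm29216: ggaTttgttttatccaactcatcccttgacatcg
mt-Nd3: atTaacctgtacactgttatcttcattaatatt
Gm28438: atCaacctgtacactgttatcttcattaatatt

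A read of 75 bases that lies inside an identical stretch carries nothing that assigns it to the mitochondrion or to chromosome 1. Neighbouring members also share bases with each other. The 2 ATP synthase genes overlap by 43 bases at chrM:7927-7969, the largest overlap among the members, and mt-Nd4l and mt-Nd4 overlap by 7 bases at chrM:10167-10173. The ends that meet are shown with the shared bases in capitals, as the plus strand at chrM:7915-7969, chrM:7927-7981, chrM:10155-10173 and chrM:10167-10185:
mt-Atp8: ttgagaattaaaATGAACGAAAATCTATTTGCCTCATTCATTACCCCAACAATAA
mt-Atp6: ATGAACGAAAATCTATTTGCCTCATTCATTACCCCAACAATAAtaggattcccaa
mt-Nd4l: caacctactacaATGCTAA
mt-Nd4: ATGCTAAaaattattcttc

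As a share of all counts, the 13 protein genes took from 0.967% of a library (EWAT 1) to 3.51% (BAT 1). In BAT they took 3.51%, 0.993% and 1.58% of replicates 1, 2 and 3, a mean of 2.03% ± 1.32 (SD, n = 3). In IWAT they took 1.88%, 2.31% and 1.70% (1.96% ± 0.314, n = 3). In RWAT they took 1.63%, 1.28% and 1.72% (1.54% ± 0.236, n = 3), and in EWAT 0.967%, 1.32% and 1.08% (1.12% ± 0.177, n = 3). BAT spanned nearly the whole range of the white depots, with its replicate 1 above every white library and its replicate 2 below all but 1 of them. Ordered by mean the depots ran BAT, IWAT, RWAT, EWAT, and each neighbouring pair in that order overlapped. Counting error alone was small: 95% Wilson intervals for these shares, those of the rRNAs and those of all members were 0.00875 to 0.0288 percentage points wide. The reads carry no described molecular identifiers, so such intervals cover counting error only.

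**Figure D1:**
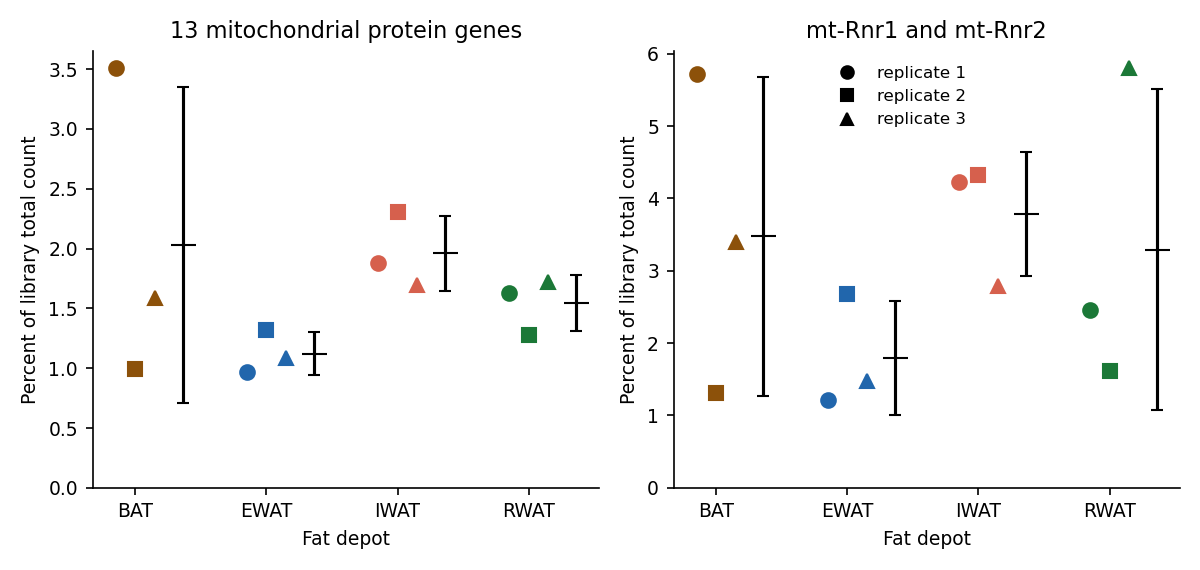
Percent of each library's total count listed under the 13 mitochondrial protein genes (left) and under the rRNAs mt-Rnr1 and mt-Rnr2 (right), by fat depot. Each point is 1 library, shaped by replicate number, and the black bar is the mean ± SD of 3 libraries. The IWAT points lie above all EWAT points in both panels, while BAT runs from 0.993% to 3.51% for the protein genes.

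The 2 rRNAs, which form the core of the mitochondrial ribosome, were still the larger part of the members' counts after ribosomal depletion of the libraries. They took 5.73%, 1.31% and 3.39% of the BAT libraries (3.48% ± 2.21, n = 3) and 4.22%, 4.33% and 2.80% of the IWAT libraries (3.78% ± 0.856, n = 3). In RWAT they took 2.46%, 1.61% and 5.80% (3.29% ± 2.21, n = 3), and in EWAT 1.22%, 2.68% and 1.47% (1.79% ± 0.783, n = 3). The highest shares were in RWAT 3 and BAT 1, which stood well above the other libraries of their depots. Because a depletion step removes rRNA before sequencing, the level of mt-Rnr1 and mt-Rnr2 reflects both the tissue and what the depletion left, which cannot be told apart here. All 37 members together took 5.51% ± 3.50 of the counts in BAT, 5.74% ± 1.12 in IWAT, 4.84% ± 2.41 in RWAT and 2.92% ± 0.958 in EWAT (n = 3 each).

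The BAT mean of each share lay above the white mean, but the difference was smaller than the spread between libraries. It was 0.488 percentage points for the protein genes (two-sided exact permutation test over 220 splits, p = 0.332, Benjamini-Hochberg (BH) adjusted over 4 shares p = 0.614). For the rRNAs it was 0.521 points (exact permutation p = 0.614, adjusted p = 0.614), and for all members 1.01 points (exact permutation p = 0.523, adjusted p = 0.614). The difference rested on BAT 1, the library with Ucp1. T and NK cell markers were also highest there, at a summed 105 CPM against 5.48 to 28.9 CPM in the other libraries, and their part was not tested. Without BAT 1 the values were -0.254 points for the protein genes, -0.604 for the rRNAs and -0.858 for all members. With BAT 2 left out they were 1.01, 1.60 and 2.61 points.

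A test over all 4 depots gave no difference past the threshold of 0.05 either. The F statistic was 1.10 for the protein genes and 0.846 for the rRNAs (exact permutation over 369600 partitions, p = 0.395 and 0.508, adjusted p = 0.508 for both). Without BAT 1 the F statistic of the protein genes was 4.98 (exact permutation p = 0.0338, adjusted over 4 shares p = 0.135). Of the 6 pairs of depots, only EWAT and IWAT had shares of the total count that did not overlap. The EWAT mean was 0.572 of the IWAT mean for the protein genes and 0.474 for the rRNAs. The exact permutation p of that pair was 0.1 for each, the smallest that 3 libraries against 3 can give, and adjusted over 6 pairs it was 0.4 and 0.6. IWAT also lay above EWAT with no overlap when nuclear protein-coding genes were taken as the total (1.96% to 2.72% against 1.08% to 1.84% for the protein genes) and in the deposited TPM values (2.00% to 3.76% against 1.01% to 1.51%). With nuclear protein-coding genes as the total the rRNAs overlapped, at 3.22% to 5.19% in IWAT and 1.36% to 3.76% in EWAT, and so did all members, at 5.18% to 7.81% and 2.44% to 5.61%. In TPM the RWAT libraries also lay above EWAT, at 1.71% to 2.27% for the protein genes and 1.49% to 3.96% for the rRNAs, where EWAT reached 1.51% and 1.33%.

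Gene by gene, members were counted as apart only for IWAT and EWAT, the pair whose shares did not overlap. Of the 37 members, 16 passed the filter on low counts and were tested: the 13 protein genes, both rRNAs and the tRNA gene mt-Ts1. In 12 of these 16 all IWAT libraries lay above all EWAT libraries, against 16.4% of the 18942 genes tested. The 4 members that overlapped were mt-Rnr2, mt-Nd3, mt-Nd4l and mt-Co2, of which the last 3 share reads with a chromosome 1 copy. Of the members that were apart, mt-Co1, mt-Co3, mt-Atp6 and mt-Nd4 have such a copy too. With the copies' counts added to the members, 14 of 16 were apart, and mt-Nd3 and mt-Rnr2 still overlapped. These members come from the same few precursors and are not independent of each other. They are also the parts of the shares given above, so these counts add no separate support.

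EdgeR called 0 of the 16 members between IWAT and EWAT at a BH-adjusted p under 0.05, where it called 9.03% of all genes. That background itself rested on single libraries: it ran from 0.0826% without IWAT 2 to 12.2% without BAT 2. The log2 fold change (IWAT minus EWAT) was positive for 13 of 13 protein genes, with a median of 0.89, where the median of all genes was 0.022 and 51.4% of them were positive. An unadjusted edgeR p under 0.05 was reached by 4 of the 16 members (mt-Nd4, mt-Nd5, mt-Nd6 and mt-Atp8), against 29.7% of all genes, so that share was near the background. DESeq2 called 1 member, mt-Nd4, where it called 20% of the genes given an adjusted p, and limma-voom called 0.

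The complex I subunits of the mitochondrial genome (NADH dehydrogenase, which takes electrons from NADH) held the members with the lowest p in that pair. The level of mt-Nd4 was 838, 1212 and 828.9 CPM in IWAT and 306.2, 593.5 and 322.7 CPM in EWAT, with every IWAT library above every EWAT library. On the log2 scale IWAT was 1.22 ± 0.49 above EWAT (SE, BH-adjusted p by edgeR = 0.12). DESeq2 gave 1.23 ± 0.47 (DESeq2 adjusted p = 0.046, against 0.046 to 0.301 over the 25 alternatives run). For mt-Nd5 the levels were 615.5, 790.7 and 491.2 CPM in IWAT and 215, 374 and 240.3 CPM in EWAT, a difference of 1.20 ± 0.48 on the log2 scale (BH-adjusted p by edgeR = 0.121). The gene for mt-Nd6 is the only protein gene read from the other strand, and it differed by 1.01 ± 0.41 (edgeR BH-adjusted p = 0.127). The values of mt-Nd1, mt-Nd2, mt-Nd3 and mt-Nd4l were 0.88 ± 0.40, 1.10 ± 0.53, 0.58 ± 0.51 and 0.80 ± 0.62, with edgeR BH-adjusted p from 0.171 to 0.492.

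In complexes III, IV and V the same comparison gave log2 fold changes between 0.72 and 1.16. Cytochrome b of complex III, mt-Cytb, differed by 0.98 ± 0.46 (edgeR BH-adjusted p = 0.185). The catalytic subunit of cytochrome c oxidase, mt-Co1, stood at 7366, 9282 and 7919 CPM in IWAT and at 4467, 5563 and 4715 CPM in EWAT, the highest count of the 13 protein genes in each library. The log2 difference of mt-Co1 was 0.75 ± 0.49 (BH-adjusted p by edgeR = 0.345), and that of mt-Co3 was 0.76 ± 0.53. The proton channel subunit of ATP synthase, mt-Atp6, differed by 0.72 ± 0.45 and its partner mt-Atp8 by 0.89 ± 0.39 (edgeR BH-adjusted p = 0.314 and 0.153). For mt-Rnr1 and mt-Rnr2 the values were 1.43 ± 0.76 and 1.04 ± 0.74 (edgeR BH-adjusted p = 0.235 and 0.385), with the widest errors after mt-Co2.

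**Figure D2:**
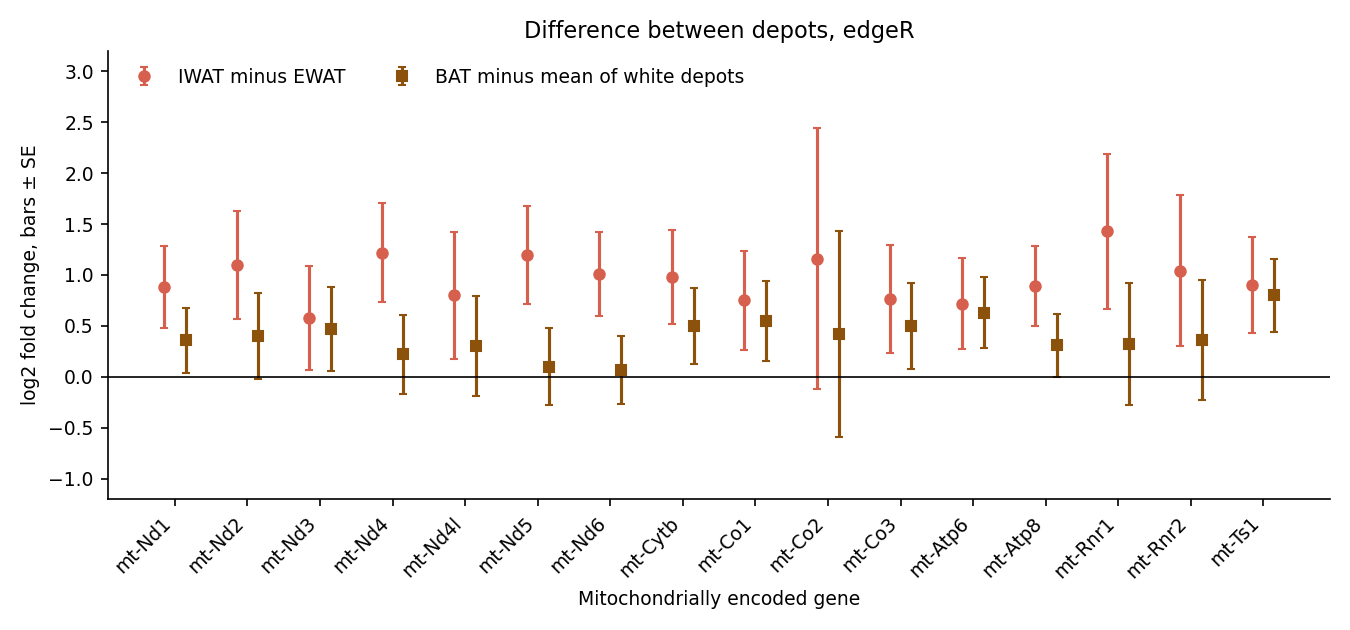
Fitted log2 fold change (vertical axis, bars ± SE) of the 16 tested members (horizontal axis) for IWAT minus EWAT (circles) and BAT minus the mean of the 3 white depots (squares). All 13 protein genes lie above 0 in both, with medians of 0.89 and 0.40, and none passed the edgeR threshold. The bar of mt-Co2 is the longest.

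Several lists of cell type markers moved with this pair of depots. The summed level of 9 macrophage markers was 10063 to 11424 CPM in EWAT and 2832 to 4414 CPM in IWAT. That sum was mostly Lyz2, at 5258 to 7609 CPM in EWAT. The list was split: edgeR called 1 higher and 1 lower in IWAT (median log2 fold change -1.35), and 2 of 9 were positive. Cd163 went the other way from the sum, at 29.9 to 92.4 CPM in EWAT and 249 to 297 CPM in IWAT. The summed level of 10 adipocyte markers was 1121 to 8399 CPM in EWAT and 17712 to 23107 CPM in IWAT. EdgeR called 0 of these 10 (median log2 fold change 2.24), and 10 of 10 were positive. Neither list had a member at 0 in all libraries. The 7 mesothelial markers summed to 51 to 122 CPM in EWAT and 2.93 to 4.40 CPM in IWAT, and edgeR called 4 of 7 lower in IWAT (median log2 fold change -4.67). Of 4 Schwann cell markers edgeR called 2 higher in IWAT (median 3.40), with sums of 32.2 to 51 CPM in EWAT and 49.9 to 89.7 CPM in IWAT, which overlapped. The 10 brown adipocyte markers summed to 8.4 to 20.1 CPM in EWAT and 33.5 to 85.1 CPM in IWAT. EdgeR called 1 of the 9 tested higher in IWAT (median log2 fold change 2.01), and 7 of 9 were positive. All these calls stand beside 9.03% of all genes called for this pair. The part of cell mixture in the members' difference was not tested.

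When BAT was set against white fat, 0 of the 16 members passed in edgeR, which called 0.0528% of all genes. DESeq2, which called 0.952% of the genes given an adjusted p, and limma-voom also called 0. The log2 fold change was positive for 13 of 13 protein genes with a median of 0.40, but leaving out BAT 1 turned that median to -0.24, and leaving out BAT 2 gave 0.77. The largest value was that of mt-Ts1 (0.80 ± 0.36), and among the protein genes the largest were those of mt-Atp6 (0.63 ± 0.35), mt-Co1 (0.55 ± 0.39), mt-Co3 (0.50 ± 0.42), mt-Cytb (0.50 ± 0.37) and mt-Nd3 (0.47 ± 0.41). For mt-Co2, mt-Nd2, mt-Nd1, mt-Atp8 and mt-Nd4l they were 0.42 ± 1.01, 0.40 ± 0.42, 0.36 ± 0.32, 0.31 ± 0.31 and 0.30 ± 0.49. The smallest were those of mt-Nd4 (0.22 ± 0.39), mt-Nd5 (0.10 ± 0.38) and mt-Nd6 (0.067 ± 0.33). For mt-Rnr1 and mt-Rnr2 they were 0.32 ± 0.60 and 0.36 ± 0.59. The edgeR BH-adjusted p of all 16 was 0.9996, and mt-Ts1 alone had an unadjusted edgeR p under 0.05 (0.0489), where 4.66% of all genes did. In BAT 1 mt-Co1 stood at 15291 CPM, against 4298 CPM in BAT 2 and 7050 CPM in BAT 3. The white libraries ran from 4467 to 9282 CPM with a median of 6620 CPM, so BAT 1 lay above all of them and BAT 2 below all of them.

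In the other 5 pairs edgeR, DESeq2 and limma-voom each called 0 members. EdgeR called 0.0845% of all genes between BAT and EWAT, 0.0264% between BAT and IWAT and 0.0158% between BAT and RWAT. It called 0.00528% between RWAT and EWAT and 0% between RWAT and IWAT, so few genes of any kind passed in these pairs. DESeq2 called 2.52%, 1.84%, 0.238%, 0.688% and 7.43% of the genes given an adjusted p in the same 5 pairs, in that order. The median log2 fold change of the 13 protein genes was 0.86 for BAT minus EWAT, -0.093 for BAT minus IWAT and 0.37 for BAT minus RWAT. It was 0.42 for RWAT minus EWAT and -0.41 for RWAT minus IWAT. Without BAT 1 the 3 BAT medians were 0.26, -0.69 and -0.27. Without RWAT 1 and RWAT 3, the libraries with the most muscle transcripts, RWAT is the single library RWAT 2, whose spread is assumed to be that of the other depots. The median was then 0.93 for BAT minus RWAT, -0.018 for RWAT minus EWAT and -0.95 for RWAT minus IWAT. An unadjusted edgeR p under 0.05 was reached by mt-Atp8 and mt-Ts1 for BAT minus EWAT (background 9.41%), by mt-Atp8 for RWAT minus EWAT (background 4.52%), and by 0 members for BAT minus IWAT, BAT minus RWAT and RWAT minus IWAT (background 12.4%, 4.36% and 19.8%). These pairs share libraries and are not independent of each other.

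The split of counts between mt-Co2 and its chromosome 1 copy was lopsided in every library. Gm28661 held 96.2% to 100% of the pair's counts, with a median of 98.4%, and mt-Co2 itself was listed at 0 in EWAT 3. The mt-Co2 counts of BAT 1, 2 and 3 were 1804, 340 and 763, while those of Gm28661 were 108546, 28209 and 42291. In EWAT 1, 2 and 3 the mt-Co2 counts were 347, 1330 and 0, against 29703, 33831 and 34114 for Gm28661. Read alone, mt-Co2 would be the lowest or second lowest of the 13 protein genes per base.

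The sum of the pair followed mt-Co1 closely. Per 100 counts of mt-Co1 and its copy, mt-Co2 and its copy had 29.6 to 35.8 counts over the 12 libraries. By depot this was 33.3 ± 2.94 in BAT, 33.4 ± 0.898 in EWAT, 32.2 ± 2.33 in IWAT and 34.4 ± 1.94 in RWAT (n = 3 each). The 4 depots did not differ past the threshold (F = 0.48, exact permutation p = 0.703, adjusted over 8 ratios p = 0.804). The summed level was 2663, 3164 and 2425 CPM in IWAT and 1563, 1857 and 1616 CPM in EWAT, now with no overlap. The sum differed between them by 0.73 ± 0.46 on the log2 scale (BH-adjusted p by edgeR = 0.315), against 1.16 ± 1.28 for mt-Co2 alone (edgeR BH-adjusted p = 0.594).

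**Figure D3:**
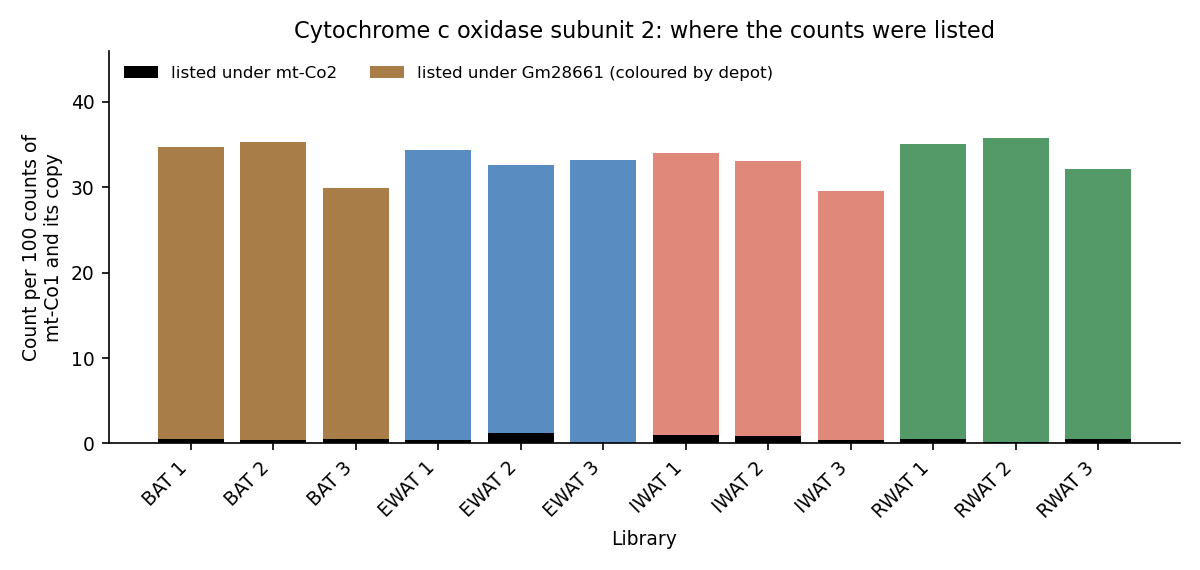
Counts of cytochrome c oxidase subunit 2 per 100 counts of mt-Co1 and its copy (vertical axis) in each of the 12 libraries (horizontal axis), split into those listed under mt-Co2 (black) and under the nuclear copy Gm28661 (coloured by depot). The black part is at most a thin strip and is 0 in EWAT 3, while the whole bars stay between 29.6 and 35.8.

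The other copies in the block took unequal and variable shares. Gm10222 held 50.8% to 87.4% of the counts it shares with mt-Nd4l, and Gm28438 held 22.6% to 59.6% of those it shares with mt-Nd3. For mt-Nd4 the share of Gm28439 was 8.01% to 17.3%, and for mt-Co1 that of Gm29216 was 1.74% to 5.87%. The copy of mt-Atp6 ranged furthest: Gm10925 held 41.9% of the pair in RWAT 3, 22.2% in IWAT 1, 0.232% in IWAT 3 and 0.00917% in RWAT 1. The deposited posterior standard deviation of the mt-Atp6 count was 943 to 2957 counts. Gm28437, the copy of mt-Co3, was listed at 0 in all libraries. Outside the block, 9 further copies of at least 90% identity never passed 10 counts in a library. The block as a whole took 0.18% to 0.702% of a library, which is 14.6% to 17% of the counts of the protein genes and block together.

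Adding the copies lowered the unevenness of 4 protein transcripts that have a copy and not of the 2 others whose copy had counts. Each gene's share of the 13 protein genes was computed in each library, and its coefficient of variation over the 12 libraries was the measure of unevenness. For mt-Co2 it was 60.6% for the member alone and 6.58% with the copies. For mt-Nd4l it was 44.6% and 12.9%, for mt-Nd3 26.3% and 18.2%, and for mt-Atp6 14.4% and 6.46%. It was higher with the copies for mt-Nd4, at 23.6% and 25.6%, and for mt-Co1, at 5.72% and 5.90%. The coefficients of mt-Nd1, mt-Co3 and mt-Cytb were 7.65% to 8.17% alone and 7.43% to 7.91% with the copies. Those of mt-Nd2, mt-Nd5, mt-Nd6 and mt-Atp8 stayed between 21.3% and 25.5% either way.

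With the copies added, mt-Co1 made up 33.8% to 41.2% of the protein transcripts, mt-Co3 15.9% to 20.5% and mt-Co2 10.9% to 13.6%. So the cytochrome c oxidase genes were the 3 largest items, followed by mt-Atp6 at 6.96% to 9.04%, mt-Nd1 at 5.22% to 6.68% and mt-Cytb at 4.91% to 6.23%. The smallest were mt-Nd4l at 0.226% to 0.371% and mt-Nd6 at 0.219% to 0.509%. Per base, mt-Co1 and mt-Co3 held the 2 highest levels in all 12 libraries, mt-Co2 the third and mt-Atp6 the fourth. The level of mt-Co2 per base was 71.4% to 86.3% of that of mt-Co1 with the copy, and 0% to 3.04% without it. Without the copies mt-Co2 ranked 12th or 13th of the 13. At the other end, mt-Nd6 had 1.91% to 4.98% of the per-base level of mt-Co1 and ranked last in every library once copies were added.

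**Figure D4:**
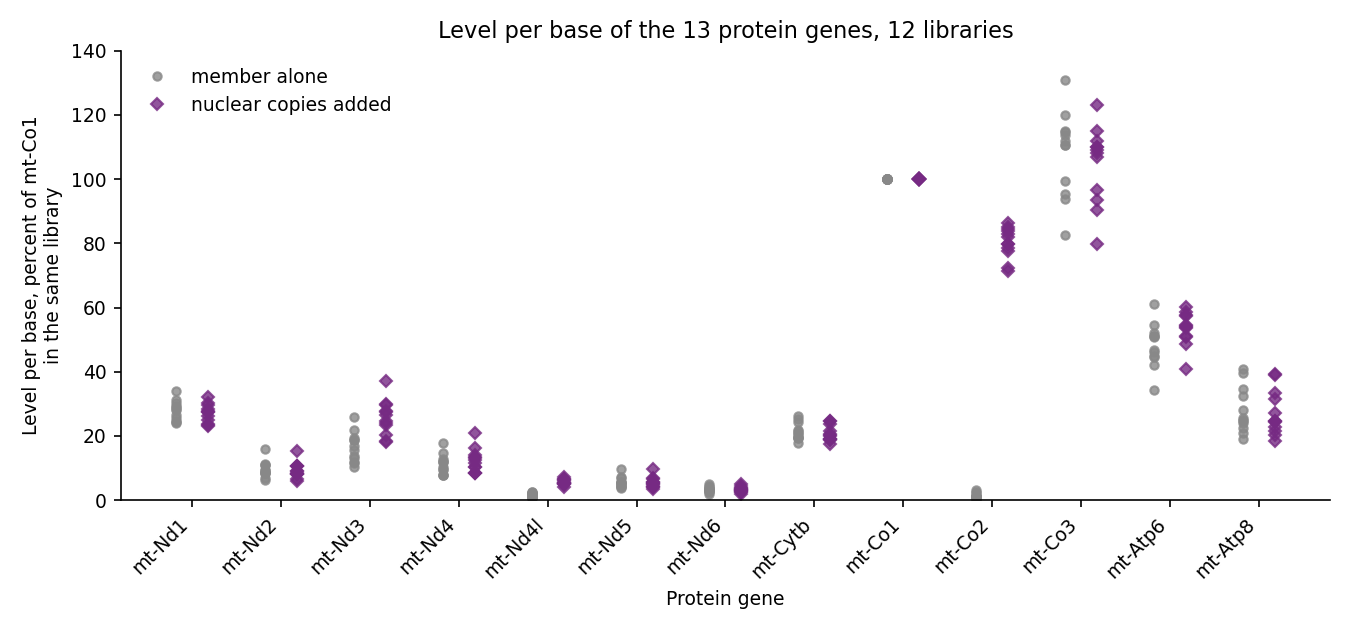
Level per base of the 13 protein genes (horizontal axis) as a percent of mt-Co1 in the same library (vertical axis), 12 libraries per gene, for the member alone (grey circles) and with nuclear copies added (purple diamonds). The points of mt-Co2 move from at most 3.04% to between 71.4% and 86.3%, the largest move of the 13.

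The makeup of the 13 protein transcripts did not differ between depots past the threshold. With members alone, 0 of 13 genes passed over the 4 depots and 0 had an unadjusted p under 0.05 (exact permutation of F, lowest adjusted p = 0.675). For BAT against white fat 0 of 13 passed and 0 had an unadjusted p under 0.05 (exact permutation, lowest adjusted p = 0.886). Adding the copies gave 0 and 0 again, with lowest adjusted p of 0.783 and 0.842. The lowest p belonged to mt-Atp8, a small ATP synthase subunit, whose share of the protein transcripts was 1.48%, 1.51% and 1.14% in RWAT. It was 0.809% to 1.02% in EWAT, 0.865% to 1.08% in BAT and 0.790% to 1.23% in IWAT, so RWAT lay above EWAT and BAT and overlapped IWAT (F = 4.37, exact permutation p = 0.0519, adjusted over 13 genes p = 0.675). Per 100 counts of mt-Atp6 and its copy, mt-Atp8 had 13.4 ± 1.39 in RWAT and 9.52 ± 0.907 in EWAT (n = 3 each, F over 4 depots 4.59, exact permutation p = 0.0466, adjusted over 8 ratios p = 0.373).

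RWAT 3 stood apart in the balance of rRNA and messenger RNA. It had 3.37 rRNA counts for each count of the protein genes, against 1.51 in RWAT 1, 1.27 in RWAT 2 and 1.26 to 2.25 in the other 9 libraries. Its ratio of mt-Rnr2 to mt-Rnr1 was the lowest, at 4.80 against 6.04 to 9.55 elsewhere. Within the protein genes it had the highest shares of mt-Nd2, mt-Nd4 and mt-Nd5, at 4.10%, 6.21% and 4.64%, where the other libraries reached 3.04%, 5.25% and 3.43%. Its share of mt-Atp6 was the lowest at 5.60%, and its share of the pair listed under the copy the highest. The same library had the fewest counts, the most muscle transcripts, and the highest share of the nuclear 18S rRNA gene Rn18s-rs5 (0.989%, against 0.060% to 0.453% elsewhere). The part of these in its values was not tested. Over the 4 depots the rRNA ratio did not differ past the threshold (F = 0.332, exact permutation p = 0.861, adjusted p = 0.861).

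**Figure D5:**
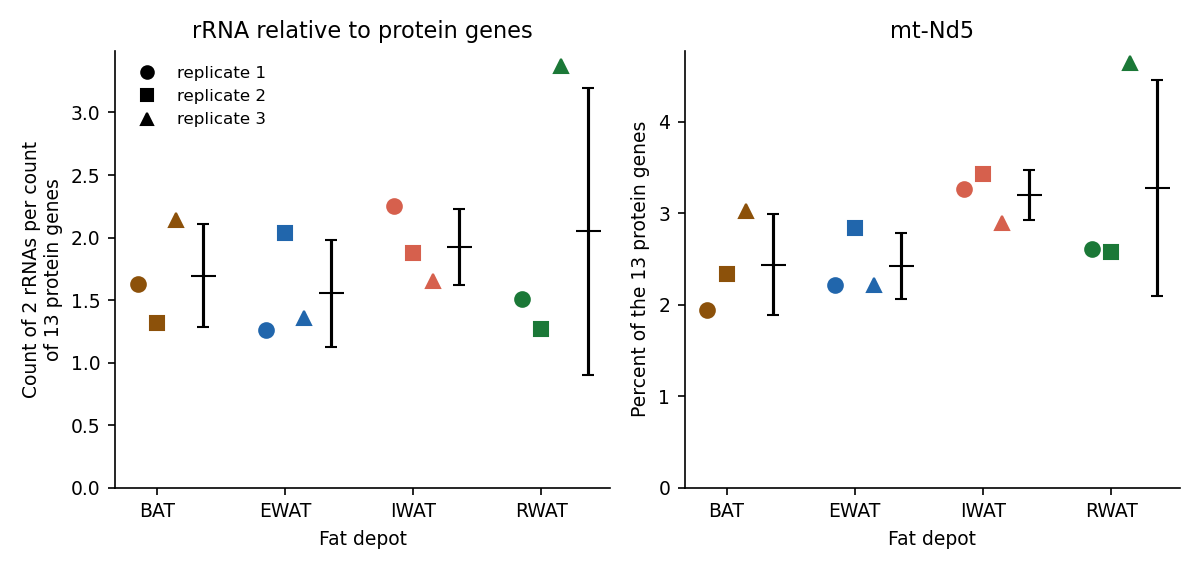
Count of the 2 rRNAs per count of the 13 protein genes (left) and mt-Nd5 as a percent of the protein genes (right), by depot, each point 1 library and the black bar the mean ± SD of 3. RWAT 3 is the highest point in both panels, at 3.37 and 4.64%.

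The only protein gene on the minus strand, mt-Nd6, had few counts. The mt-Nd6 gene had 2.64 to 6.17 counts per 1000 of the other 12 protein genes, and 132 to 195 per 1000 of mt-Nd5, whose end it meets on the opposite strand over 14 bases. Per 1000 of the other protein genes the means were 3.76 ± 1.26 in BAT, 4.18 ± 0.258 in EWAT, 4.72 ± 0.841 in IWAT and 4.84 ± 1.18 in RWAT (n = 3 each). The depots did not differ past the threshold (F = 0.804, exact permutation p = 0.537, adjusted over 8 ratios p = 0.716). Whether reads were counted by strand is not given in the sources used here, and without strand the reads of mt-Nd6 and mt-Nd5 in their shared bases cannot be told apart.

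The tRNA genes were barely represented. They had 1719 counts in all 12 libraries together, and 1644 of these belonged to mt-Ts1, a serine tRNA. The other 21 had at most 23 counts each over the 12 libraries, and 11 of the 22 had none. Of the 22 genes, 21 are shorter than a 75-base read and the longest is 75 bases, so a whole read fits inside at most 1 of them, and a count of 0 sets no limit on their level. For mt-Ts1 the level was 17.1, 4.27 and 8.83 CPM in BAT, 3.38, 5.71 and 4.36 CPM in EWAT, 7.35, 11.4 and 6.51 CPM in IWAT, and 6.88, 4.95 and 5.49 CPM in RWAT. BAT 1 was highest, and the BAT and white ranges overlapped.

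The counts of mt-Ts1 were set against those of mt-Co1, the gene opposite to it. In every library mt-Ts1 had 0.757 to 1.25 counts per 1000 counts of mt-Co1. A steady ratio to mt-Co1 was not particular to mt-Ts1: per base, mt-Nd1 stood at 24% to 34% of mt-Co1 and mt-Cytb at 17.8% to 26.3%. The genes mt-Ts1 and mt-Co1 lie on opposite strands and share 3 bases at chrM:6870-6872. Both are shown in their own direction with those 3 bases in capitals, mt-Ts1 whole at chrM:6870-6938 (minus strand) and the end of mt-Co1 at chrM:6843-6872 (plus strand):
mt-Ts1: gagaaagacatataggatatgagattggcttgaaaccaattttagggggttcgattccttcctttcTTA
mt-Co1 end: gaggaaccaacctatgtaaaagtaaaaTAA

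The nuclear genes that read and maintain the mitochondrial genome were taken next. The list held 41 genes for transcription, replication, processing and stability of mitochondrial RNA, and their summed level was 717 to 952 CPM in the 12 libraries. EdgeR called 0 of 41 in all 7 comparisons, against at most 9.03% of all genes, for IWAT minus EWAT. DESeq2 called 1, the mitochondrial topoisomerase Top1mt, at 0.68 ± 0.25 for IWAT minus EWAT and -0.90 ± 0.25 for RWAT minus IWAT (DESeq2 adjusted p = 0.0369 and 0.0144), where it called 20% and 7.43% of the genes given an adjusted p. Limma-voom called 0. The median log2 fold change was 0.19 for IWAT minus EWAT (28 of 41 positive, 7 with an unadjusted edgeR p under 0.05 against 29.7% of all genes) and 0.054 for BAT minus white (27 of 41 positive, 0 with an unadjusted edgeR p under 0.05). In the same 2 comparisons the medians of the 13 mitochondrial protein genes were 0.89 and 0.40.

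Polrmt, the RNA polymerase of the mitochondrion, stood at 18.4 ± 3.26 CPM in BAT, 15.5 ± 2.80 in EWAT, 16.2 ± 0.446 in IWAT and 14.8 ± 1.55 in RWAT (n = 3 each). It differed by 0.11 ± 0.21 on the log2 scale for IWAT minus EWAT (edgeR BH-adjusted p = 0.772) and 0.28 ± 0.16 for BAT minus white (edgeR BH-adjusted p = 0.9996). Tfam, which packs and activates the mitochondrial genome, gave -0.064 ± 0.20 and -0.09 ± 0.17 (edgeR BH-adjusted p = 0.875 and 0.9996). Lrpprc, which stabilises mitochondrial messenger RNAs, gave 0.23 ± 0.26 and 0.27 ± 0.21 (edgeR BH-adjusted p = 0.605 and 0.9996). Beside Polrmt, the list members with the smallest p for BAT minus white were Rnmtl1, an rRNA methyltransferase (0.45 ± 0.25), and Pnpt1, which degrades mitochondrial RNA (0.36 ± 0.22).

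The nuclear subunits of the same complexes numbered 78 genes in 5 lists. For IWAT minus EWAT 74 of them had a positive log2 fold change, against 51.4% of all genes, with a median of 0.59. Whether these genes vary independently was not tested. Summed by list, complexes I and II did not overlap (lowest IWAT 2091 and 567 CPM, highest EWAT 2003 and 516 CPM). Complexes III, IV and V overlapped (lowest IWAT 782, 1429 and 2713 CPM, highest EWAT 821, 1462 and 3082 CPM). EdgeR called 0 of 78 (9.03% of all genes), and 10 had an unadjusted edgeR p under 0.05 (29.7% of all genes). DESeq2 called 6 of the 78 there (20% of the genes given an adjusted p), 4 higher in IWAT (Cox8a, Cox8b, Ndufb3 and Sdha) and 2 lower (Atp5g1 and Cox6a2), and limma-voom 0. Cox6a2, a muscle isoform of complex IV, was also called by DESeq2 for RWAT minus IWAT at 4.61 ± 0.84 (DESeq2 adjusted p = 2.35e-05), where muscle markers summed to 586 and 3257 CPM in RWAT 1 and RWAT 3 and their part was not tested. The medians were 0.64 for the 36 genes of complex I, 0.70 for the 4 of complex II, 0.75 for the 9 of complex III, 0.46 for the 14 of complex IV and 0.43 for the 15 of complex V. For BAT minus white 68 of 78 were positive, against 51.1% of all genes, with a median of 0.22. EdgeR called 0 of 78 there (0.0528% of all genes), and 2 had an unadjusted edgeR p under 0.05 (4.66% of all genes). The complex I genes summed to 3639 CPM in BAT 1, but to 1551 CPM in BAT 2 and 1834 CPM in BAT 3. In the white libraries they summed to 1312 to 3776 CPM. For IWAT minus EWAT, BAT minus white and BAT minus EWAT (0.38 against 0.86) the nuclear medians were nearer 0 than those of the mitochondrial protein genes. They were farther from 0 for BAT minus RWAT (0.48 against 0.37), BAT minus IWAT (-0.20 against -0.093) and RWAT minus IWAT (-0.64 against -0.41). For RWAT minus EWAT the signs differed, at -0.045 (24 of 78 positive) against 0.42 (12 of 13 positive). The difference between these medians and those of the mitochondrial genes was not tested.

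BAT 1 and IWAT 1 were the libraries highest in these nuclear genes, while the 13 mitochondrial protein genes were highest in BAT 1 and IWAT 2. The 36 nuclear complex I genes summed to 3639 CPM in BAT 1 and 3776 CPM in IWAT 1, against 1312 to 2169 CPM in the other 10 libraries. Sdha, the catalytic subunit of succinate dehydrogenase in complex II, which has no mitochondrially encoded part, stood at 517, 388 and 304 CPM in IWAT. In EWAT it stood at 139, 142 and 208 CPM, a log2 fold change of 1.36 ± 0.43 with no overlap (edgeR BH-adjusted p = 0.066). Ndufv1, a complex I subunit that binds NADH, gave 1.20 ± 0.46 (edgeR BH-adjusted p = 0.107) for the same pair, and Atp5b, the catalytic subunit of ATP synthase, 0.93 ± 0.42 (edgeR BH-adjusted p = 0.169). Uqcrc1, a core protein of complex III, gave 0.75 ± 0.45 (edgeR BH-adjusted p = 0.295).

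For BAT minus white the lowest p among the nuclear subunits belonged to complex IV isoforms of muscle and brown fat. Cox7a1 stood at 113, 2.02 and 2.35 CPM in BAT and Cox8b at 216, 0.0547 and 2.55 CPM, so both were high in BAT 1 alone of the 3. In the white libraries Cox7a1 reached 13.2 CPM and Cox8b 69.3 CPM, both in IWAT 1. Their log2 fold changes were 3.09 ± 0.97 and 4.38 ± 1.38 (edgeR BH-adjusted p = 0.505 and 0.513). In BAT 1 the mitochondrial protein genes were also at their highest share, 3.51%, and muscle markers summed to 170 CPM, whose part in the result was not tested.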

How the data were processed

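Total RNA of 12 fat samples was depleted of rRNA (Ribo-Zero Gold) and sequenced as single 75-base reads, per the labels' protocols. Per the submitters' processing notes, the authors used Trimmomatic 0.36, RSEM 1.3.0, DESeq2 1.10.1 and the build GRCm38.p4; the sources used here do not name the aligner or annotation release. The authors deposited RSEM expected counts per gene, TPM values, and posterior standard deviations of each estimated count (a score here). Of 47729 gene IDs, 47224 were found in GENCODE M21 (GRCm38), which gave positions and sequences. Shares are percent of the summed expected count, and CPM is scaled from the same sum.

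Rounded counts were fitted with edgeR 4.0.16 (TMM, filterByExpr with a minimum count of 10, quasi-likelihood F test, 1 coefficient per depot, BH over all 18942 genes, threshold 0.05) in 7 comparisons. Standard errors are the log2 fold change over the root of F. Shares, ratios and makeup were tested by exact permutation. Levels per base are expected counts over RSEM effective lengths, and TPM served as an alternative. Copies were found with blastn 2.17.0 (at least 90% identity over 100 bases, same strand). Both tests were tested on simulated data. All members could be named, and of each nuclear list the 3 with the smallest p for BAT minus white, and always Polrmt, Tfam, Lrpprc and Ucp1. Sdha and mt-Nd4 were also named for their p in IWAT minus EWAT, and Top1mt, Cox6a2, Cox8a, Ndufb3 and Atp5g1 because DESeq2 called them, after their values were seen. The members and lists were chosen with earlier results of these data known. Replicate numbers were not used to pair samples. Deviations from depot means, correlated across genes, were over 0.1 for every number only between BAT and RWAT (0.182, 0.429 and 0.199). These correlations were below 0 for every number between EWAT and RWAT, and also between BAT and EWAT (-0.196, -0.359 and -0.0482).

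Alternatives were RLE and upper-quartile factors, library totals alone, TMM without mitochondrial and ribosomal genes, other filters (none, or at least 1 CPM in 3 libraries), DESeq2 1.42.0, limma-voom (limma 3.58.1), a fit of only those groups under comparison, a block for replicate number, other totals, copies added, and libraries left out singly or in pairs. For the nuclear lists and mt-Ts1 they were chosen after seeing the data.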

Additional observations from a re-analysis of the deposited data

Results flagged for a closer look

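Among the 9 white libraries, 2 of 25 shares, makeup values and ratios examined had a library far from the others, by the gap to its nearest neighbour relative to the whole range. Chance flags about 1 in 20 such groups. Both were RWAT 3. Its rRNA count per protein-gene count was 3.37, with the next white library at 2.25 and the lowest at 1.26. Its share of mt-Nd5 among the protein genes was 4.64%, with the next at 3.43% and the lowest at 2.22%. These 2 values come from the same library, the one with the fewest counts and the most muscle transcripts. Groups of 3 libraries were too small for this rule.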

How the results depend on the processing

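No share of the library passed at an adjusted p under 0.05 under any alternative run, and edgeR called 0 members in all 7 comparisons under each of its alternatives. DESeq2 called 1 member for IWAT minus EWAT (mt-Nd4, 1.23). Leaving out single libraries moved the BAT minus white share from -0.254 to 1.01 points for protein genes, -0.604 to 1.60 for rRNAs and -0.858 to 2.61 for all members, lowest without BAT 1 and highest without BAT 2. The median log2 fold change of the protein genes then ran from -0.24 to 0.77 against white, 0.26 to 1.21 against EWAT, -0.69 to 0.27 against IWAT and -0.27 to 0.68 against RWAT. For BAT minus white the single genes ran as follows, lowest without BAT 1 for each: mt-Nd1 -0.25 to 0.66, mt-Nd2 -0.25 to 0.77, mt-Nd3 -0.34 to 0.78, mt-Nd4 -0.20 to 0.57, mt-Nd4l -0.086 to 0.76, mt-Nd5 -0.31 to 0.46, mt-Nd6 -0.22 to 0.42, mt-Cytb -0.16 to 0.86, mt-Co1 -0.13 to 0.91, mt-Co2 -0.39 to 1.05, mt-Co3 -0.34 to 0.88, mt-Atp6 -0.084 to 0.97, mt-Atp8 -0.24 to 0.63, mt-Rnr1 -0.23 to 0.74, mt-Rnr2 -0.23 to 0.78 and mt-Ts1 0.16 to 1.20. With limma-voom mt-Nd5 and mt-Nd6 were -0.0045 and -0.041. Without RWAT 1 and RWAT 3, which leaves 1 RWAT library, the medians were 0.93 for BAT minus RWAT and -0.95 for RWAT minus IWAT. Among the 78 nuclear subunits the count called for IWAT minus EWAT was 1 with upper-quartile factors, 2 with library totals alone, 1 without a filter, 6 with DESeq2, 2 with only the groups compared, 1 without RWAT 1 and RWAT 3 and 0 to 3 leaving out single libraries. In the same order these settings called 9.33%, 9.53%, 5.51%, 20%, 7.08%, 3.71% and 0.0826% to 12.2% of all genes. DESeq2 also called 1 for BAT minus EWAT and 1 for RWAT minus IWAT, and 1 of the machinery genes in IWAT minus EWAT and in RWAT minus IWAT. The cause of these changes was not tested.

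With the replicate number as a block, edgeR called 0 members in all 7 comparisons, so the block changed no member call. It called 3.37% of all genes for IWAT minus EWAT, against 9.03% without the block. With the block the median log2 fold change of the protein genes was 0.92 for IWAT minus EWAT and 0.29 for BAT minus RWAT. The F statistic of the protein-gene share was 1.00. Scaling moved the median of all genes by at most 0.099 (log2). The deposited TPM gives the tRNA genes no value, since the effective length is 0 for 21 of 22 and mt-Tl1, the other, had no count. The fit of only the groups compared was not run for BAT minus white, which uses all depots. Reads that match both a member and a chromosome 1 copy limit the values of mt-Co2, mt-Nd4l, mt-Nd3, mt-Atp6, mt-Co3, mt-Nd4 and mt-Co1. The 43 bases that mt-Atp8 shares with mt-Atp6 also match the start of Gm10925, and their part in the values of mt-Atp8 was not tested.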

Other observations

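The few tRNA counts lay almost all in genes of one strand. Of the 8 tRNA genes on the minus strand, 7 had a count, and they held 1711 of the 1719 counts. Of the 14 on the plus strand, 4 had a count, and they held 8. After mt-Ts1 the largest sum over the 12 libraries was that of mt-Ty, with 23.

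Structural RNAs of the nucleus that carry no poly(A) tail differed widely between libraries of a depot. Rn7s2, a signal recognition particle RNA, was the most abundant nuclear gene of EWAT 2 at 7.63% of counts, and Rn7sk took 2.62% there, against 0.489% in EWAT 1 and 1.35% in EWAT 3. EWAT 2 was also the EWAT library with the largest share of mitochondrial rRNA, 2.68% against 1.22% and 1.47%.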
